A study of Mus musculus with 18 samples.

Results

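The TNF superfamily and NF-kB pathway families were described here as 45 genes, taken by name from 9636 genes on the arrays. The members were the TNF ligands (Tnfsf), the TNF receptors (Tnfrsf), the TNF-induced proteins (Tnfaip), the TRAF adaptors, the TAK1-binding proteins (Tab1 to Tab3), the IkB kinases (Ikbk), the IkB proteins (Nfkbi), the NF-kB subunits and the TNIP proteins. Probe sets with a single gene symbol were used, and the 2 TNF receptors blocked in the study and Traf1, Traf2 and Traf5 were left out. The name rule found 50 genes before these 5 were removed, and each of the 45 members had 1 probe set. By role they were 10 receptors, 4 ligands, 3 TRAF adaptors, 3 TRAF partners, 3 TAK1-binding proteins, 3 IkB kinase subunits or relatives, 4 NF-kB subunits, 6 IkB family members, 7 TNF-induced proteins, 1 TNIP protein and Tnfsf13os, a transcript opposite to Tnfsf13 that is no ligand. The subunit gene Nfkb1 and the genes Traf3 and Tnip2 were not analysed here.

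RNA was profiled in Lin-Kit+ progenitor cells of Balb/c mice with a myeloproliferative neoplasm (MPN) driven by JAK2V617F. The mutant kinase was carried by a retrovirus with GFP, so the JAK2V617F+ group holds GFP+ cells and the JAK2V617F- group holds GFP- cells of the same diseased marrow, not cells of healthy mice. The marrow had been cultured for 16 h in every group with the growth factors SCF (100 ng/mL) and IL-3 (50 ng/mL), and with a TNFR2 blocking antibody (BA) at 10 μg/mL, with a TNFR1 BA at 10 μg/mL or with neither (untreated). The cells were then sorted, which gave the 6 groups TNFR2 BA JAK2V617F+, TNFR2 BA JAK2V617F-, TNFR1 BA JAK2V617F+, TNFR1 BA JAK2V617F-, untreated JAK2V617F+ and untreated JAK2V617F-, with 3 arrays each. Untreated JAK2V617F+ replicate 3 was left out, which leaves 2 arrays in that group and 17 in all. The study left out the same array. Its median log2 signal was 6.05, against 7.41 to 7.75 on the other 17 arrays.

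TNF superfamily ligands are trimers, mostly made as membrane proteins, that cluster their receptors on the target cell. Receptors recruit TRAF adaptors, which build ubiquitin chains that are read by the TAK1-TAB complex and the IkB kinase (IKK) complex. IKK marks the IkB proteins for destruction, which releases NF-kB dimers to the nucleus. NF-kB then drives its own brakes, among them the IkB gene Nfkbia and the deubiquitinase gene Tnfaip3. In blood-forming tissue these pathways are known for their part in inflammation, progenitor survival and lymphocyte maturation.

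The brakes and several receptors are themselves NF-kB target genes, so the promoters of the members were searched for the 10-base kappaB motif, the sequence that NF-kB dimers bind. RefSeq promoters on GRCm38.p6, from 250 bases before to 50 bases after a gene's start, were at hand for 36 of 45 members. The motif was searched on both strands, and overlapping matches were counted by their start. A promoter with it was found for 10 of the 36 members (27.8%), against 11.98% of the 7908 measured genes with a promoter and 9.55% of all 27025 genes with one. The 10 members were Nfkbia, Nfkbid, Nfkbie, Nfkb2, Rel, Tnip1, Tnfaip2, Tnfaip3, Tnfaip8l1 and Tnfrsf9. A match describes the letters of the window and is no proof of binding. The promoters of Nfkbia, Tnfaip2, Tnfrsf9 and Rel are shown because these 4 genes had the motif and lead the comparisons given further on. Capitals mark the motif, which reads as the opposite strand in Nfkbia and Tnfaip2.
Nfkbia (chr12:55492598-55492897, minus strand): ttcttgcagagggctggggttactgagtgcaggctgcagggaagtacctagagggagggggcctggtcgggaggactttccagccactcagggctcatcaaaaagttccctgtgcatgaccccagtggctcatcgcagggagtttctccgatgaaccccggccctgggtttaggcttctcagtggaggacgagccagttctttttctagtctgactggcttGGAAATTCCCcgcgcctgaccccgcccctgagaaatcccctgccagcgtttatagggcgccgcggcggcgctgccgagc
Tnfaip2 (chr12:111442411-111442710, plus strand): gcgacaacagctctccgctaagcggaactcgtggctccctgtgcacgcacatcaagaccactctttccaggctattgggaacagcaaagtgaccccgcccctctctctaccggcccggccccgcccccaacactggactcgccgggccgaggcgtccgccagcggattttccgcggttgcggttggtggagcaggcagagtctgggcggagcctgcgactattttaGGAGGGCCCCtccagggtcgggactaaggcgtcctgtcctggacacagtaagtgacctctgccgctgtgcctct
Tnfrsf9 (chr4:150927749-150928048, plus strand): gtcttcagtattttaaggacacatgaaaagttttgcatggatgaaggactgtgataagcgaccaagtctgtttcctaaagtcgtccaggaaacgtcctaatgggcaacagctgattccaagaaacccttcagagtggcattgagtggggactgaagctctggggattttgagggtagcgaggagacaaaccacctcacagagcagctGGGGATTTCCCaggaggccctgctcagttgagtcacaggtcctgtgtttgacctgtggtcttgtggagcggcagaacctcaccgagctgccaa
Rel (chr11:23770920-23771219, minus strand): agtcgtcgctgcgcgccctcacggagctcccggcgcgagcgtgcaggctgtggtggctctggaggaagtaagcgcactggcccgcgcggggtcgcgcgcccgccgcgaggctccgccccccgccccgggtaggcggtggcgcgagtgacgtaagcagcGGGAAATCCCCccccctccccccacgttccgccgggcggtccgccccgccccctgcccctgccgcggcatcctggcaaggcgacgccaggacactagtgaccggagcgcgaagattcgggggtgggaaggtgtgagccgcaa
The capitals of Tnfrsf9 hold 2 overlapping matches, at -43 and -42 from the start site. Those of Rel hold 2 as well, 1 on each strand. The single match of Nfkbia lay at -29 from the start site and that of Tnfaip2 at -24.

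Signals are log2 values, so a difference of 1 is a doubling, and levels of different genes cannot be compared because each probe set has its own brightness. Over the 17 arrays, 28 of the 45 members had at least 1 array under a log2 signal of 4, close to the lowest value of the table (2.22). Such values made up 25.5% of the members' values and 22.6% of all values. Relb, the subunit that pairs with the product of Nfkb2, was under 4 on all 17 arrays, with 2.22, 2.24 and 3.42 as its lowest, median and highest signal. Tnfrsf4 (the receptor OX40) also had a median of 2.22. For 9 of the 45 members a value was repeated exactly on 5 or more arrays, as for 11.6% of all probe sets. Some of these values lay above 4, as for Tnfrsf18 (4.68) and Tnfsf13os (4.43), with 6 arrays each. Replicates of a group differed widely, with a median within-group SD of 1.44 for the members and 1.45 for all probe sets. The SD ran from 0.38 for Relb to 3.50 for Tnfaip1, and 23 of 45 members spanned more than 5 log2 units over the 17 arrays, against 53.1% of all probe sets.

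The comparison of genotypes asked how JAK2V617F+ cells differed from JAK2V617F- cells in the same marrow, as the mean of the differences within the 3 treatments. None of the 45 members passed an adjusted p of 0.05 in limma (0 of 45), against 0.358% of all 10335 probe sets. At an unadjusted p under 0.05 there were 4 members, which is 8.89% of the members against 10.3% of all probe sets. Of these, 3 were higher in JAK2V617F+ cells (5.21% of all probe sets) and 1 was lower (5.08%). Nfkbia was lower in JAK2V617F+ cells, whereas Tnfaip2, Tab1 and Tnfrsf9 were higher. The members' differences had a median of 0.19, against 0.00 for all probe sets, and 29 were above 0 and 16 below. The 95% confidence interval of the difference reached 1.53 log2 units to each side at the median member (0.71 to 3.02 over the members). It lay wholly within 2 log2 units of 0 for 20 of the 45 members, and differences of that size were not excluded for the others.

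**Figure D1:**
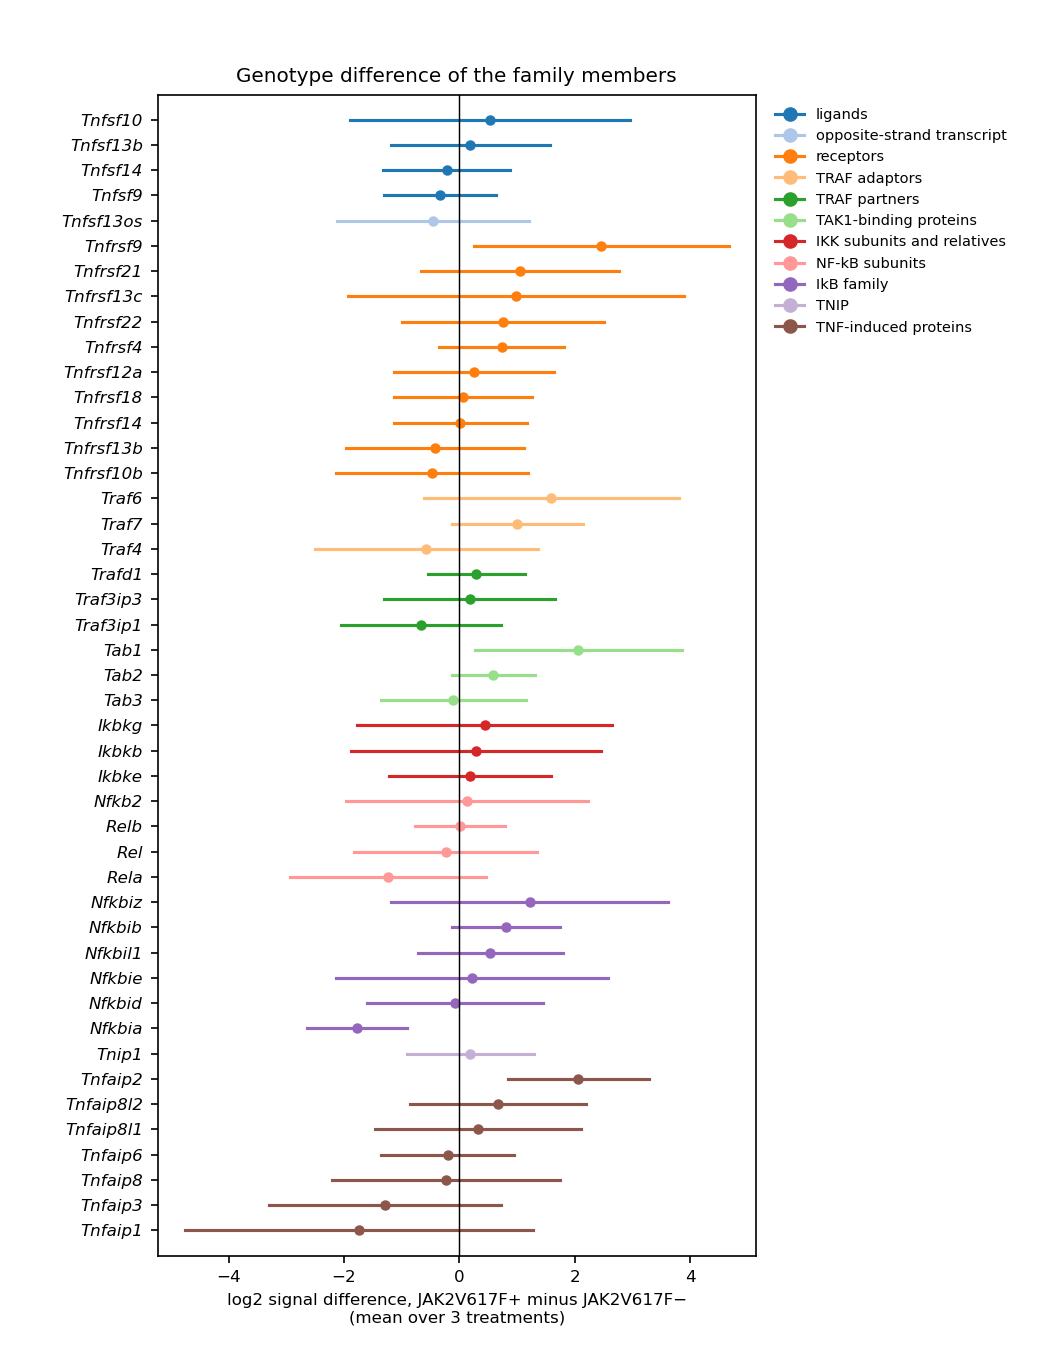
Difference in log2 signal, JAK2V617F+ minus JAK2V617F- (mean over 3 treatments, 8 and 9 arrays), for the 45 members, grouped and coloured by role; dots are the differences and lines their 95% confidence intervals. The intervals of Nfkbia, Tnfaip2, Tab1 and Tnfrsf9 lie off 0 without adjustment for the number of probe sets, and those of the other members include 0.

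Among the 4 ligands, which are Tnfsf9 (4-1BB ligand), Tnfsf10 (TRAIL), Tnfsf13b (BAFF) and Tnfsf14 (LIGHT), the genotype difference ran from -0.34 for Tnfsf9 to 0.53 for Tnfsf10. The median signal of Tnfsf9, Tnfsf13b and Tnfsf14 was under 4 in both genotypes. Tnfsf10 spread most, with a lowest signal of 2.33 and a median of 6.42 on the JAK2V617F+ arrays, against 2.24 and 6.03 on the JAK2V617F- arrays. The ranges of the genotypes overlapped almost wholly. Tnfsf13os differed by -0.46 (95% confidence interval -2.13 to 1.21).

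Of the 10 receptors, 8 lay above 0 and 2 below, with a median difference of 0.50. Tnfrsf9 encodes 4-1BB (CD137), a costimulatory receptor best known on activated lymphocytes. Its signal was 10.17, 4.54 and 9.97 in TNFR2 BA JAK2V617F+ cells, against 8.53, 3.50 and 6.41 in TNFR2 BA JAK2V617F- cells (replicates 1, 2 and 3). With TNFR1 BA it was 9.90, 8.38 and 9.41 in JAK2V617F+ cells, against 7.57, 6.37 and 5.85 in JAK2V617F- cells. Untreated, it was 10.07 and 5.89 in JAK2V617F+ cells (replicates 1 and 2), against 8.36, 5.12 and 2.47 in JAK2V617F- cells. Replicate 2 was low in both genotypes with TNFR2 BA, and the groups overlapped except with TNFR1 BA, yet the JAK2V617F+ array was the higher of its replicate in 8 of 8 pairs. The difference was 2.46 (SE 1.05), with an adjusted p of 0.427 in limma, and 1.59 without replicate 3.

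The other receptors were Tnfrsf21 (death receptor 6), Tnfrsf13c (the BAFF receptor), Tnfrsf22 (a decoy TRAIL receptor of the mouse), Tnfrsf4, Tnfrsf12a (the TWEAK receptor Fn14), Tnfrsf18 (GITR), Tnfrsf14 (HVEM), Tnfrsf13b (TACI) and Tnfrsf10b (the TRAIL receptor). Their differences ran from -0.47 for Tnfrsf10b to 1.05 for Tnfrsf21, and their intervals all included 0. Tnfrsf13c spread over nearly the whole scale in both genotypes, with 2.22, 8.88 and 11.66 as the lowest, median and highest of the JAK2V617F+ arrays, against 2.22, 7.87 and 10.26 of the JAK2V617F- arrays. Tnfrsf18 had medians of 4.68 in both genotypes and a difference of 0.06 (95% confidence interval -1.14 to 1.25). The value 4.68 was repeated exactly on 6 arrays, so the equal medians do not show equal expression.

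Downstream of the receptors, Traf6, a ubiquitin ligase shared with Toll-like and IL-1 receptors, differed by 1.59 (95% confidence interval -0.62 to 3.80), Traf7 by 1.001 (-0.14 to 2.14) and Traf4 by -0.57 (-2.51 to 1.36). The Traf6 difference was 0.88 without TNFR1 BA JAK2V617F+ replicate 2. Traf7 was the higher of its replicate in JAK2V617F+ cells in 7 of 8 pairs. The partners Trafd1, Traf3ip3 and Traf3ip1, of which Traf3ip1 also serves transport in cilia, lay between -0.66 and 0.30.

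Tab1 encodes the protein that binds and activates the kinase TAK1. Its signal was 4.94, 7.02 and 6.22 in TNFR2 BA JAK2V617F+ cells, against 7.11, 2.22 and 4.58 in TNFR2 BA JAK2V617F- cells. With TNFR1 BA it was 4.56, 8.34 and 9.30 in JAK2V617F+ cells, against 4.14 on all 3 JAK2V617F- arrays, and untreated it was 5.32 and 7.29 in JAK2V617F+ cells, against 4.53, 4.15 and 5.74 in JAK2V617F- cells. JAK2V617F+ was higher in 7 of 8 pairs, with replicate 1 of TNFR2 BA the exception. The difference was 2.06 (SE 0.85, adjusted p 0.412 in limma), and it was 0.90 without replicate 2 and 3.41 without replicate 1. Tab2 and Tab3, whose products read ubiquitin chains, differed by 0.59 (95% confidence interval -0.12 to 1.30) and -0.11 (-1.36 to 1.15). Tab2 was bright on every array, at 9.88 or more in JAK2V617F+ cells and 10.16 or more in JAK2V617F- cells.

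The IKK genes Ikbkb (the catalytic subunit IKK beta), Ikbkg (the scaffold NEMO) and Ikbke (the related kinase IKK epsilon) differed by 0.29, 0.44 and 0.18 between genotypes, and their intervals included 0. Among the NF-kB subunits, Rela (p65) had the largest difference. Rela was 5.66, 5.05 and 5.48 in TNFR2 BA JAK2V617F+ cells, against 5.90, 5.90 and 7.49 in TNFR2 BA JAK2V617F- cells, and 2.35, 5.90 and 5.86 in TNFR1 BA JAK2V617F+ cells, against 6.14, 6.70 and 6.94 in TNFR1 BA JAK2V617F- cells. Untreated, it was 4.93 and 6.21 in JAK2V617F+ cells, against 7.73, 7.94 and 3.43 in JAK2V617F- cells. It was lower in JAK2V617F+ cells in 8 of 8 pairs, and the groups did not overlap with either BA. The difference was -1.24 (SE 0.81, adjusted p 0.614), and -0.62 without replicate 1. Rel (c-Rel), Relb and Nfkb2 differed by -0.24, 0.02 and 0.14.

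Nfkbia encodes IkB alpha, the inhibitor that holds NF-kB in the cytoplasm and is resynthesised when NF-kB is active. In TNFR2 BA cells its signal was 8.34, 8.82 and 10.68 in JAK2V617F+ cells, against 11.41, 9.86 and 10.89 in JAK2V617F- cells. In TNFR1 BA cells it was 9.50, 9.76 and 10.70 in JAK2V617F+ cells, against 10.76, 12.13 and 11.50 in JAK2V617F- cells. In untreated cells it was 9.37 and 7.68 in JAK2V617F+ cells, against 11.20, 10.54 and 11.09 in JAK2V617F- cells. The groups were apart in untreated and TNFR1 BA cells and overlapped in TNFR2 BA cells, where replicate 3 was high in JAK2V617F+ cells, and JAK2V617F+ was the lower of its replicate in 8 of 8 pairs.

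Nfkbia averaged 9.35 ± 1.06 on the 8 JAK2V617F+ arrays and 11.04 ± 0.64 on the 9 JAK2V617F- arrays (SD). The difference of -1.78 (SE 0.41, 95% confidence interval -2.65 to -0.91) was the lowest in adjusted p of the 45 members, at 0.0790 in limma, and missed the threshold. It passed when untreated JAK2V617F+ replicate 1 was left out (-2.06, adjusted p 0.0292) and when TNFR2 BA JAK2V617F+ replicate 3 was left out (-2.01, adjusted p 0.0244). Over all alternatives the difference stayed between -2.07 and -1.48, with adjusted p between 0.0244 and 0.811.

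No other IkB gene was lower in 8 of 8 pairs. Nfkbib, which encodes the related IkB beta, was 9.34, 10.54 and 9.51 in TNFR2 BA JAK2V617F+ cells, against 7.80, 9.41 and 8.96 in TNFR2 BA JAK2V617F- cells. With TNFR1 BA it was 8.75, 10.31 and 9.73 in JAK2V617F+ cells, against 7.21, 9.20 and 8.61 in JAK2V617F- cells, and untreated it was 9.12 and 10.21 in JAK2V617F+ cells, against 9.01, 9.76 and 9.93 in JAK2V617F- cells. JAK2V617F+ was higher in 8 of 8 pairs, by 0.11 to 1.54, and replicate 1 was lowest in every group. The difference was 0.81 (SE 0.45, adjusted p 0.536).

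Nfkbiz, which encodes the nuclear cofactor IkB zeta, was also higher in JAK2V617F+ cells in 8 of 8 pairs, but by only 0.01 in the closest. It ranged over 2.24, 8.26 and 10.34 (lowest, median and highest) in JAK2V617F+ cells, against 2.22, 6.60 and 10.64 in JAK2V617F- cells, and the difference was 1.22 (SE 1.14, adjusted p 0.750). Its direction was not stable, at -0.33 without replicate 1 and 0.10 without untreated JAK2V617F+ replicate 1. Nfkbid, Nfkbie and Nfkbil1 differed by -0.07, 0.23 and 0.54, and each was higher in JAK2V617F+ cells in 3 or 4 of 8 pairs.

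Of the 7 TNF-induced genes, Tnfaip2, which encodes a protein of membrane protrusions induced by TNF in endothelial and myeloid cells, was the member with the second lowest adjusted p. It was 9.89, 8.65 and 8.85 in TNFR2 BA JAK2V617F+ cells, against 6.22, 6.82 and 9.01 in TNFR2 BA JAK2V617F- cells. With TNFR1 BA it was 8.01, 7.63 and 8.26 in JAK2V617F+ cells, against 4.83, 7.27 and 6.39 in JAK2V617F- cells. Untreated, it was 10.02 and 10.42 in JAK2V617F+ cells, against 6.86, 7.32 and 8.70 in JAK2V617F- cells. The groups were apart in untreated and TNFR1 BA cells, and replicate 3 of TNFR2 BA was the 1 of 8 pairs without a higher JAK2V617F+ array. The difference was 2.06 (SE 0.58, adjusted p 0.189).

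Tnfaip3, the deubiquitinase that ends NF-kB signalling, differed by -1.29 (95% confidence interval -3.31 to 0.72), or -0.81 without TNFR2 BA JAK2V617F- replicate 2 and -0.84 without untreated JAK2V617F+ replicate 2, and was higher in JAK2V617F+ cells in 3 of 8 pairs. Tnfaip1, an adaptor of a ubiquitin ligase, differed by -1.74 with the widest interval of the members (-4.76 to 1.28). Tnfaip6, Tnfaip8, Tnfaip8l1 and Tnfaip8l2 lay between -0.23 and 0.67, and Tnip1, whose product works with that of Tnfaip3, differed by 0.19 (-0.91 to 1.29).

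**Figure D2:**
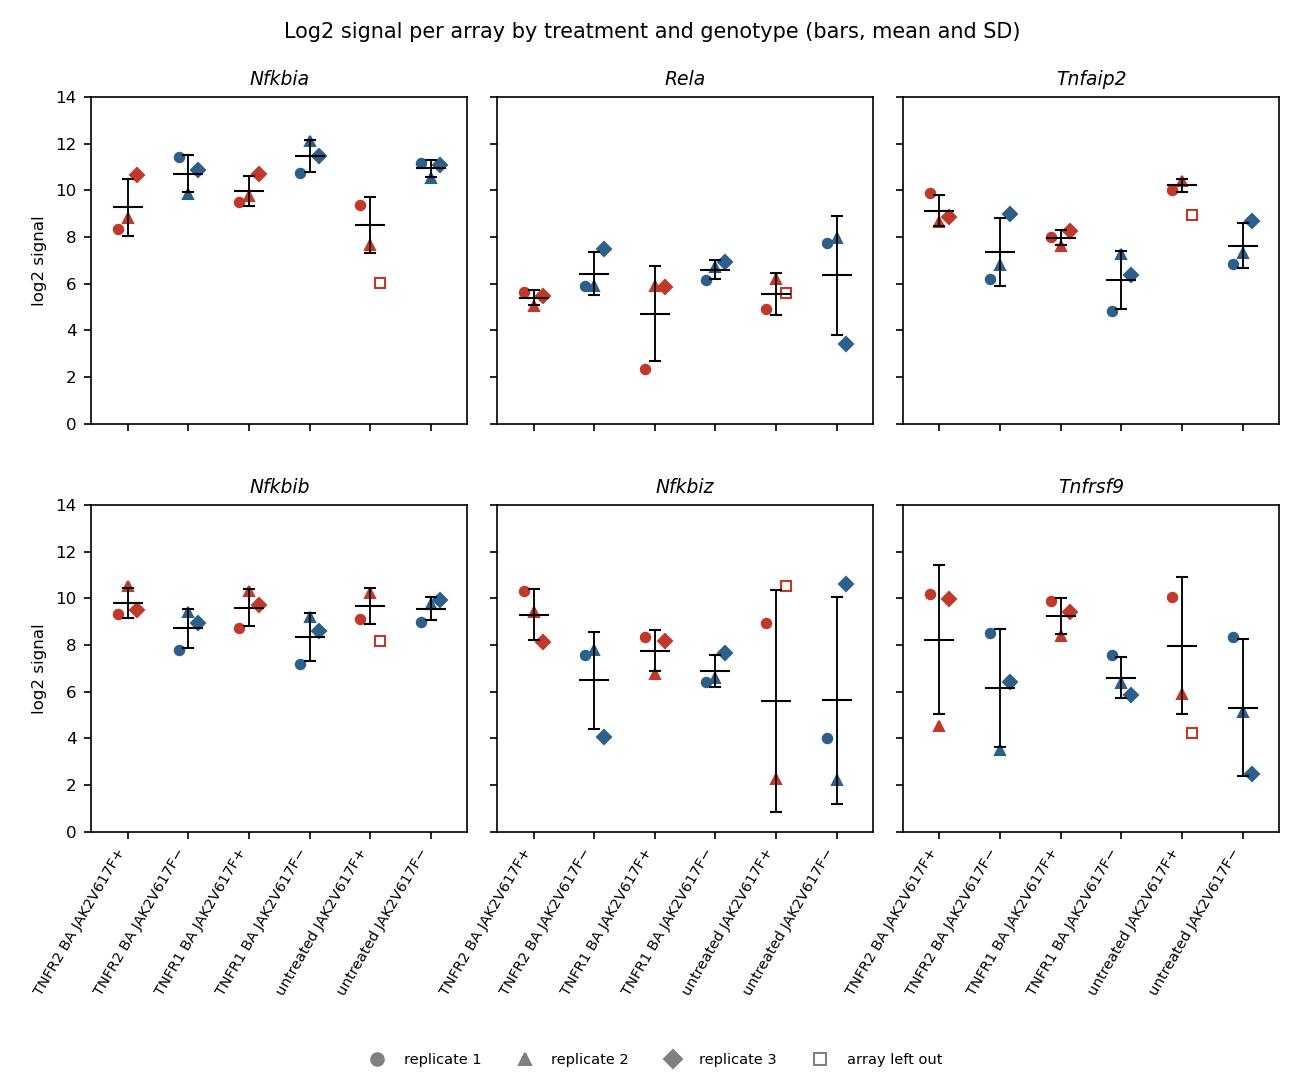
Log2 signal per array of Nfkbia, Rela, Tnfaip2, Nfkbib, Nfkbiz and Tnfrsf9 in the 6 groups, with JAK2V617F+ in red left of JAK2V617F- in blue for each treatment; bars show the mean with the SD over the 2 or 3 arrays kept, marker shapes are replicates and open squares the array left out. Nfkbia averaged 9.28, 9.98 and 8.53 in JAK2V617F+ cells with TNFR2 BA, with TNFR1 BA and untreated, against 10.72, 11.46 and 10.94 in JAK2V617F- cells.

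Counted over the replicates, 5 of 45 members (11.1%) differed in the same direction in 8 of 8 pairs, against 2.01% of all probe sets. Nfkbib, Nfkbiz and Tnfrsf9 were higher in JAK2V617F+ cells (1.14% of all probe sets) and Nfkbia and Rela were lower (0.871%). The 8 pairs come from 3 experiments and are not independent, and none of the 5 passed the adjusted threshold. No member had non-overlapping genotypes over all 17 arrays (0 of 45), against 0.242% of all probe sets.

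Markers of other cell types moved with genotype too, and in bulk RNA fewer cells of a type and less RNA per cell cannot be told apart. The mean signal of 11 measured mast cell and basophil markers of 13 was 10.88 to 12.31 on JAK2V617F+ arrays, against 6.91 to 9.01 on JAK2V617F- arrays. At an adjusted p under 0.05 in limma, which 0.358% of all probe sets passed, 7 of 11 rose. All of the 11 but Slc18a2 had a higher mean in JAK2V617F+ cells. For 10 of 15 erythroid markers the mean signal was 8.59 to 10.77, against 5.98 to 8.35 on JAK2V617F- arrays. All 10 had a higher mean in JAK2V617F+ cells, and 3 of 10 passed that threshold. For 12 of 15 monocyte, macrophage and dendritic cell markers the mean signal was 5.95 to 8.71, against 6.95 to 9.26 on JAK2V617F- arrays. Of these, H2-Aa fell at that threshold. The ranges of megakaryocyte (6 of 10), neutrophil (9 of 11), B cell (5 of 10) and T and NK cell markers (4 of 11) overlapped between genotypes, and none of their markers passed. Kit, on which the cells were sorted, was 3.71 to 9.95 in JAK2V617F+ cells and 4.19 to 9.20 in JAK2V617F- cells, with 1 array under 4. The 8 of 9 measured stem and progenitor markers, Kit among them, had mean signals of 7.86 to 8.63 on JAK2V617F+ arrays, against 6.53 to 8.37 on JAK2V617F- arrays. At an adjusted p under 0.05, 1 of the 8 rose. It was Mycn, at 8.92 to 11.93 in JAK2V617F+ cells and 2.22 to 2.28 in JAK2V617F- cells (difference 8.30, adjusted p 1.27e-06 in limma). Mycn is part of the list means, and the other markers of that list did not move together. Kit, Cd34, Gata2 and Hoxa9 had a higher mean in JAK2V617F+ cells, whereas Myb, Meis1 and Flt3 had a lower mean. Their differences ran from -2.06 for Flt3 to 0.98 for Gata2. The B cell list averaged 2.55 to 5.16 on JAK2V617F+ arrays and 2.40 to 6.92 on JAK2V617F- arrays, and its genes Vpreb1 and Igll1 reached 9.37 and 9.15 in JAK2V617F+ cells and 11.91 and 10.95 in JAK2V617F- cells. The part of these cell types in the members' differences was not tested.

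Within each treatment, 0 of 45 members passed an adjusted p of 0.05 between genotypes. The shares of all probe sets were 0.0387% with TNFR2 BA, 0.0871% with TNFR1 BA and 0.0774% untreated. An unadjusted p under 0.05 was found for 2 members with TNFR2 BA (5.63% of all probe sets, 2.77% higher and 2.86% lower), 2 with TNFR1 BA (6.21%, 3.86% higher and 2.35% lower) and 3 untreated (7.32%, 2.85% higher and 4.47% lower). With TNFR2 BA these were Rel, at -3.69 (SE 1.25, adjusted p 0.679), and Traf3ip1, at -2.97 (SE 1.10, adjusted p 0.772), whose values follow with the antibodies. With TNFR1 BA they were Tab1, at 3.26 (SE 1.42, adjusted p 0.777), and Nfkbia, at -1.48 (SE 0.69, adjusted p 0.792). Untreated they were Nfkbia, at -2.42 (SE 0.77, adjusted p 0.481), Tnfaip2, at 2.59 (SE 1.08, adjusted p 0.604), and Tnfaip1. Without untreated JAK2V617F+ replicate 2, the untreated difference of Nfkbia was -1.57 (adjusted p 1), and that of Rel with TNFR2 BA was -2.45 without TNFR2 BA JAK2V617F+ replicate 1.

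Tnfaip1 was 3.91 and 2.80 in untreated JAK2V617F+ cells, against 12.53, 9.77 and 5.64 in untreated JAK2V617F- cells. The groups did not overlap, but the JAK2V617F- arrays spread widely. The difference was -5.96 (SE 2.67, adjusted p 0.638), and with all 18 arrays it was -3.65. Non-overlapping groups were found for 6 members with TNFR2 BA (10.1% of all probe sets), 7 with TNFR1 BA (10.1%) and 12 untreated, where JAK2V617F+ had 2 arrays (22.4%). Tnfaip3 was among the last, with 6.12 and 3.42 in untreated JAK2V617F+ cells, against 8.32, 8.52 and 7.86 in untreated JAK2V617F- cells (difference -3.46, SE 1.78, adjusted p 0.694).

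The effect of blocking each receptor was read against untreated cells of the same genotype, and all comparisons of a genotype share its untreated arrays. In JAK2V617F+ cells, 0 of 45 members passed an adjusted p of 0.05 with TNFR2 BA (0.029% of all probe sets) or with TNFR1 BA (0.00968%). Without adjustment, a p under 0.05 was found for 3 members with TNFR2 BA (5.26% of all probe sets, 3.18% higher and 2.08% lower) and 0 with TNFR1 BA (6.78%, 4.35% higher and 2.43% lower). The 3, all lower with TNFR2 BA, were Rel, Traf3ip1 and Ikbkb.

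Rel encodes c-Rel, the subunit most restricted to blood cells. In JAK2V617F+ cells it was 2.86, 5.52 and 7.68 with TNFR2 BA, 9.29, 8.50 and 8.24 with TNFR1 BA and 9.11 and 7.97 untreated. In JAK2V617F- cells it was 9.88, 8.54 and 8.71 with TNFR2 BA, 9.31, 5.82 and 5.44 with TNFR1 BA and 6.31, 8.08 and 7.77 untreated. All 3 TNFR2 BA JAK2V617F+ arrays lay below the untreated arrays of that genotype, with replicate 3 closest to them, and all 3 TNFR2 BA JAK2V617F- arrays lay above the untreated arrays of theirs. The difference, TNFR2 BA minus untreated, was -3.19 in JAK2V617F+ cells (SE 1.40, adjusted p 0.922) and 1.66 in JAK2V617F- cells (SE 1.25, adjusted p 1). The array left out had a Rel signal of 2.22, and with all 18 arrays the JAK2V617F+ difference was -1.08. It was -1.94 without TNFR2 BA JAK2V617F+ replicate 1.

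Traf3ip1 was 4.20, 6.93 and 4.01 with TNFR2 BA, 9.41, 9.29 and 7.83 with TNFR1 BA and 7.53 and 8.78 untreated in JAK2V617F+ cells. In JAK2V617F- cells it was 8.15, 8.46 and 7.44 with TNFR2 BA, 9.33, 7.58 and 7.25 with TNFR1 BA and 8.86, 6.12 and 8.85 untreated. The 3 TNFR2 BA JAK2V617F+ arrays lay below all others except untreated JAK2V617F- replicate 2. The difference, TNFR2 BA minus untreated, was -3.11 in JAK2V617F+ cells (SE 1.23, adjusted p 0.854) and 0.07 in JAK2V617F- cells (SE 1.10, adjusted p 1). With all 18 arrays the JAK2V617F+ difference was -1.71.

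Ikbkb was 3.59, 3.59 and 3.52 with TNFR2 BA, 2.87, 6.24 and 8.15 with TNFR1 BA and 5.35 and 10.44 untreated in JAK2V617F+ cells. In JAK2V617F- cells it was 3.93, 8.51 and 3.59 with TNFR2 BA, 5.48, 7.29 and 5.19 with TNFR1 BA and 3.72, 7.57 and 3.76 untreated. All 3 TNFR2 BA JAK2V617F+ arrays were under 4, as were 4 of the 6 JAK2V617F- arrays that had TNFR2 BA or were untreated. The difference was -4.33 (SE 1.92, adjusted p 0.922), and without untreated JAK2V617F+ replicate 2, the array at 10.44, it was -1.79. Without untreated JAK2V617F+ replicate 1 it was -6.87.

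**Figure D3:**
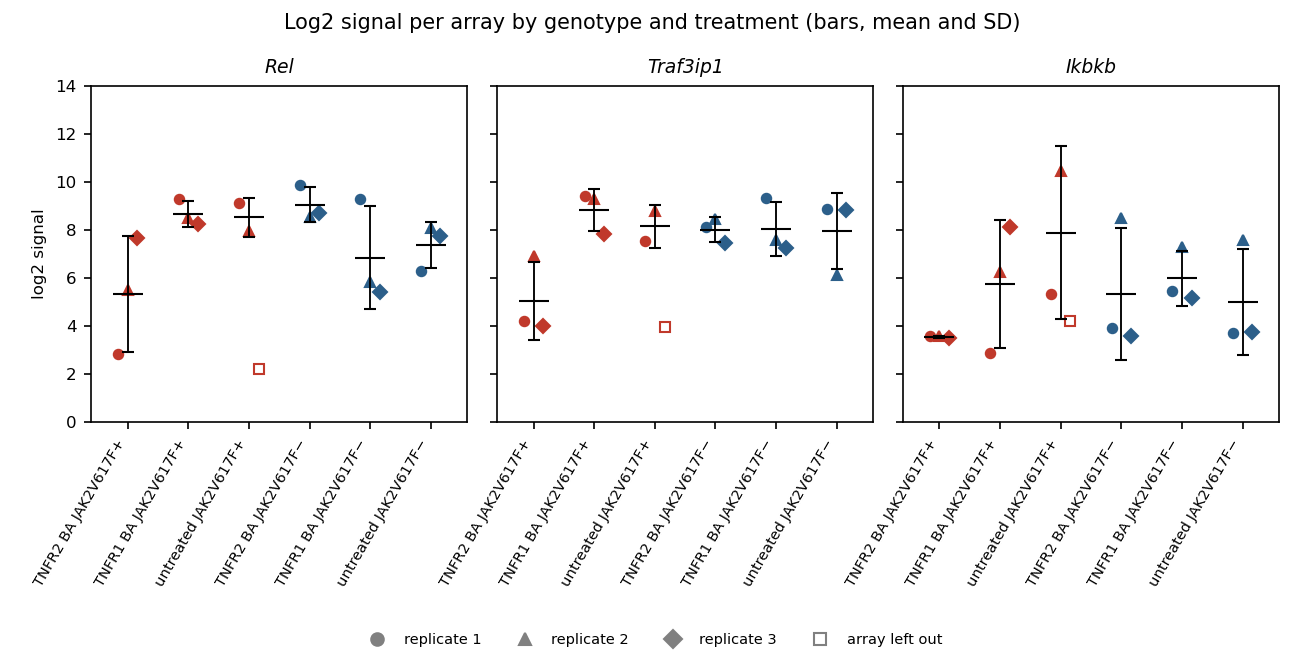
Log2 signal per array of Rel, Traf3ip1 and Ikbkb, in JAK2V617F+ (red) and JAK2V617F- cells (blue), each with TNFR2 BA, TNFR1 BA and untreated; bars show the mean with the SD over the arrays kept, marker shapes are replicates and open squares the array left out. The TNFR2 BA JAK2V617F+ means were 5.35 for Rel, 5.04 for Traf3ip1 and 3.57 for Ikbkb, against 8.54, 8.15 and 7.90 in untreated JAK2V617F+ cells.

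With TNFR1 BA in JAK2V617F+ cells, the largest differences were those of Tnfaip1, at 4.90 (SE 2.67, adjusted p 0.791), Traf6, at -4.07 (SE 1.95, adjusted p 0.743), and Ikbkg, at -4.05 (SE 1.96, adjusted p 0.743). Traf6 was 2.65, 9.05 and 2.51 with TNFR1 BA, against 8.80 and 8.81 untreated, and Ikbkg was 2.94, 9.53 and 2.31 with TNFR1 BA, against 9.23 and 8.72 untreated. Replicate 2 with TNFR1 BA was the highest of these arrays for both genes and replicates 1 and 3 were under 4. Tnfaip1 was 8.97, 9.31 and 6.48 with TNFR1 BA and 10.50, 10.17 and 3.70 with TNFR2 BA, against 3.91 and 2.80 untreated. Of the members that led the genotype comparison, Nfkbia was 1.46 higher with TNFR1 BA than untreated (SE 0.77, adjusted p 0.789) and 0.75 higher with TNFR2 BA (SE 0.77, adjusted p 0.991), and Tnfaip2 was 2.25 lower (SE 1.08, adjusted p 0.743) and 1.09 lower (SE 1.08, adjusted p 0.991). Non-overlapping groups were counted for 9 members with TNFR2 BA (15.6% of all probe sets) and 9 with TNFR1 BA (18%).

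In JAK2V617F- cells, 0 of 45 members passed with TNFR2 BA or with TNFR1 BA, and 0 of all probe sets did in either (0%). Unadjusted p-values under 0.05 came to 0 members with TNFR2 BA (2.47% of all probe sets, 1.16% higher and 1.31% lower) and 1 with TNFR1 BA (3.73%, 1.42% higher and 2.3% lower). The 1 was Tnfaip8, an apoptosis regulator induced by TNF, at 6.18, 6.08 and 7.43 with TNFR1 BA, against 4.38, 2.46 and 2.91 untreated, and all treated arrays were the higher. Its difference was 3.31 (SE 1.56, adjusted p 1). The largest difference was that of Tnfrsf13c, at -4.76 with TNFR2 BA (SE 2.30, adjusted p 1) and -3.42 with TNFR1 BA (SE 2.30, adjusted p 1). It was 2.42, 8.74 and 2.22 with TNFR2 BA and 6.69, 8.49 and 2.22 with TNFR1 BA, against 10.26, 9.54 and 7.87 untreated, and replicate 2 lay near its untreated array while replicate 3 was at 2.22 with either BA. Non-overlapping groups were counted for 1 member with TNFR2 BA (7.8% of all probe sets) and 3 with TNFR1 BA (8.25%).

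**Figure D4:**
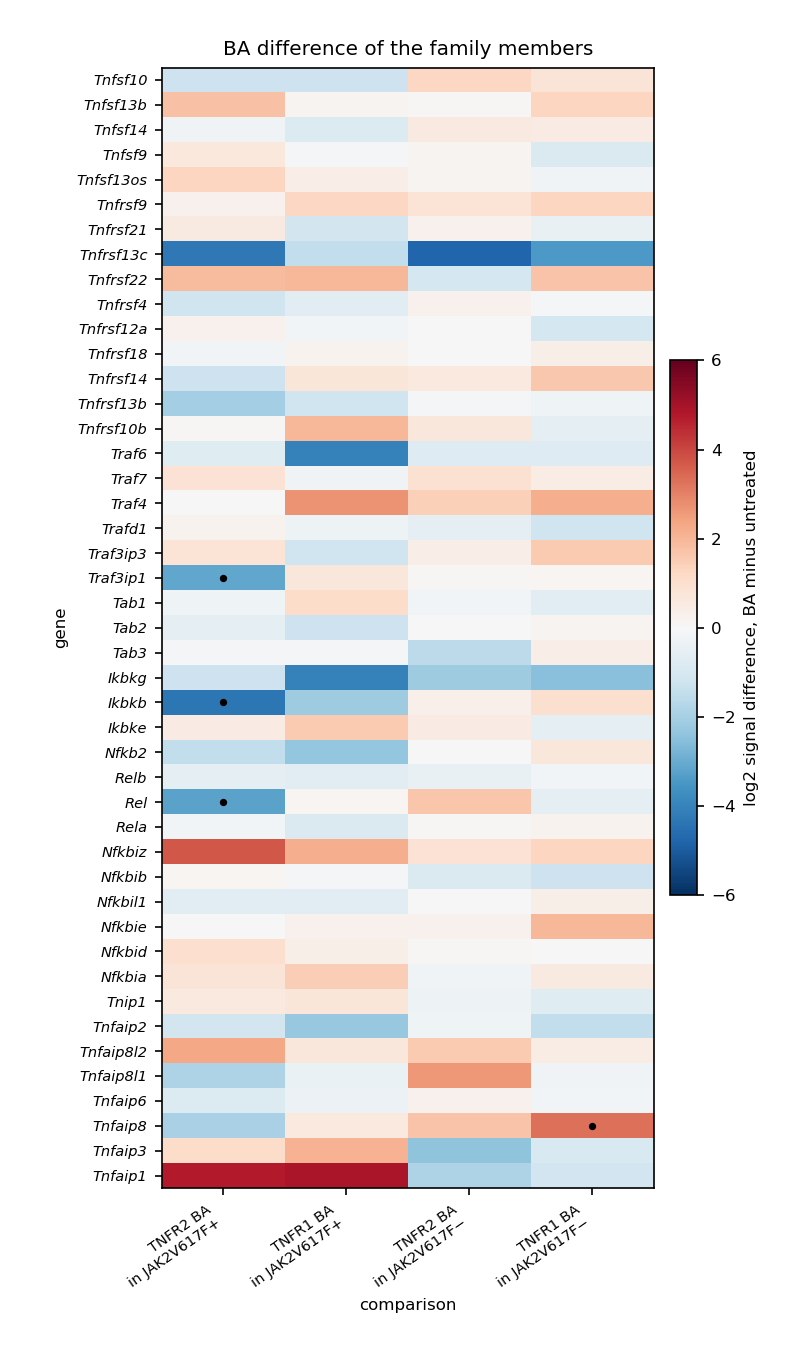
Difference in log2 signal, BA minus untreated, for the 45 members (rows, by role) in 4 comparisons (columns), with colour from blue (lower with BA) to red (higher); dots mark an unadjusted p under 0.05. Dots stand at Rel, Traf3ip1 and Ikbkb for TNFR2 BA in JAK2V617F+ cells and at Tnfaip8 for TNFR1 BA in JAK2V617F- cells.

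Set directly against each other, the 2 antibodies gave 0 of 45 members past the adjusted threshold in JAK2V617F+ cells (0% of all probe sets) and 0 of 45 in JAK2V617F- cells (0%). Before adjustment, 3 members in JAK2V617F+ cells had a p under 0.05 (4.37% of all probe sets, 1.9% higher and 2.48% lower) and 0 in JAK2V617F- cells (3.7%, 2.13% higher and 1.57% lower). The 3 were all lower with TNFR2 BA than with TNFR1 BA. They were Traf3ip1, at -3.80 (SE 1.10, adjusted p 0.917), Rel, at -3.32 (SE 1.25, adjusted p 1), and Tnfrsf14, at -1.96 (SE 0.91, adjusted p 1). Rel was at -2.08 without TNFR2 BA JAK2V617F+ replicate 1, and Tnfrsf14 at -1.29 without TNFR2 BA JAK2V617F+ replicate 3. Tnfrsf14, the receptor of LIGHT, was 8.47, 8.31 and 6.40 with TNFR2 BA, against 9.98, 10.78 and 8.30 with TNFR1 BA, and replicate 3 of TNFR1 BA lay just under 2 of the TNFR2 BA arrays. Non-overlapping antibodies were found for 4 of 45 members in JAK2V617F+ cells (8.03% of all probe sets), Rel and Traf3ip1 among them, and for 2 in JAK2V617F- cells (8.43%).

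Whether an antibody acted differently in the 2 genotypes was tested as an interaction. Again 0 of 45 members passed for TNFR2 BA (0% of all probe sets) or for TNFR1 BA (0%). The unadjusted p was under 0.05 for 2 members for TNFR2 BA (3.83% of all probe sets, 2.24% higher and 1.6% lower) and 0 for TNFR1 BA (5.22%, 3.5% higher and 1.72% lower). Rel had an interaction of -4.85 (SE 1.88, adjusted p 0.997), and it was -2.74 with all 18 arrays and -2.07 without replicate 1. Tnfaip8l1 had -4.46 (SE 2.11, adjusted p 0.997), but only 3 of the arrays in that interaction had a signal above 5, at 5.29 and 7.51 in TNFR2 BA JAK2V617F- cells and 6.35 in untreated JAK2V617F+ cells. The value was -2.39 without untreated JAK2V617F+ replicate 2 and -0.94 without replicate 2 of every group. The median interval of an interaction reached 3.82 log2 units to each side, so smaller differences in antibody effect were not detectable at the median member.

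Over all 12 comparisons, 540 tests of members in limma gave 0 adjusted p under 0.05 and 20 unadjusted p under 0.05 (3.70%), spread over 11 members. For all probe sets, the share in a comparison ran from 0% to 0.358% with adjustment and from 2.47% to 10.3% without. The paired t-test named in the study's methods, run on the same signals, gave 0 members after adjustment in each of the 10 comparisons it could be used for. It rested on 2 or 3 pairs, and between 0 and 8 of all 10335 probe sets passed after adjustment, so it could hardly call a member. At an unadjusted p under 0.05 it gave 2 members for genotype over treatments, against 664 of all probe sets. In the other 9 it gave between 0 and 3 members, against 341 to 487 of all probe sets.

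The wider pathway was described with 2 further gene lists. Of 55 other TNF and NF-kB pathway genes, 37 were measured, and 1 of them fell between genotypes at an adjusted p under 0.05. It was Xiap, which encodes an inhibitor of caspases, at -4.19 (SE 0.71, adjusted p 0.00774). Xiap and Mapk8 were brought forward by the study on these samples, so their place here is not independent evidence. Without adjustment there were 0 higher and 4 lower at p under 0.05 (Xiap, Mapk8, Birc2 and Fbxw11), against 5.21% and 5.08% of all probe sets, and the list's median difference was -0.11. Xiap was also the only member of the list past the threshold with TNFR2 BA in JAK2V617F+ cells, at 8.37 (SE 1.32, adjusted p 0.0291), and between genotypes in untreated cells, at -7.82 (SE 1.32, adjusted p 0.0188). These 2 comparisons share the 2 untreated JAK2V617F+ arrays. Its signal was 2.22 to 12.01 in JAK2V617F+ cells and 7.99 to 11.69 in JAK2V617F- cells, with 3 arrays under 4. With TNFR2 BA in JAK2V617F+ cells, 5 genes of the list were higher and 1 lower at an unadjusted p under 0.05 (3.18% and 2.08% of all probe sets). Beside Xiap, the higher genes were Mapk8, at 5.34 (SE 1.46), Fbxw11, at 3.46 (SE 1.22), Tbk1, at 2.28 (SE 0.86), and Sharpin, at 0.82 (SE 0.34). Tradd was lower, at -2.33 (SE 0.94). With TNFR1 BA in those cells 3 were higher and 0 lower (4.35% and 2.43%). They were Sharpin, at 1.19 (SE 0.34), Tbk1, at 2.80 (SE 0.86), and Mapk8, at 3.91 (SE 1.46), all 3 of them also higher with TNFR2 BA.

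Of 33 genes known as NF-kB targets, 22 were measured and 0 passed between genotypes. Unadjusted, 5 were higher in JAK2V617F+ cells and 2 lower at p under 0.05, against 5.21% and 5.08% of all probe sets, with a median difference over the list of 0.24. The higher genes were the chemokine gene Ccl3, at 3.95 (SE 0.92, adjusted p 0.0790), Csf1, the gene of a macrophage growth factor, at 2.91 (SE 0.65, adjusted p 0.0627), Il6, at 3.02 (SE 0.84, adjusted p 0.176), Il1b, at 3.07 (SE 1.09, adjusted p 0.328), and Ier3, at 0.96 (SE 0.40, adjusted p 0.414). The lower ones were Gadd45b, at -2.53 (SE 0.87, adjusted p 0.308), and Cd83, at -2.58 (SE 1.04, adjusted p 0.404). Csf1 was 2.22 to 8.36 in JAK2V617F+ cells and 2.22 to 2.25 in JAK2V617F- cells. With TNFR2 BA in JAK2V617F+ cells, 0 targets passed (0.029% of all probe sets) and 3 were higher at an unadjusted p under 0.05 (3.18%). They were Csf1, at 5.25 (SE 1.20), Vcam1, at 4.72 (SE 2.13), and Icam1, at 3.97 (SE 1.19). With TNFR1 BA in the same cells, 0 targets passed (0.00968%) and 2 were higher at an unadjusted p under 0.05 (4.35%). They were Vcam1, at 6.43 (SE 2.13), and Csf1, at 2.72 (SE 1.20). Both comparisons share the untreated arrays.

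Read back onto the promoters, the 10 members with a kappaB motif had a median genotype difference of 0.16 (6 higher and 4 lower in JAK2V617F+ cells), and the 26 members whose promoters lacked it had 0.22 (18 higher and 8 lower). Differences ran from -1.78 for Nfkbia to 2.46 for Tnfrsf9 among the 10, and from -1.74 to 1.59 among the 26. The promoters of Nfkbia and Tnfrsf9 were printed because these genes lead the comparisons, so their place at the extremes adds nothing.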

How the data were processed

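Lin-Kit+ cells of 6 groups were profiled on 18 Affymetrix mouse arrays. Signals were deposited on the log2 scale for each probe set, and the authors used Affymetrix Expression Console. How they were normalised, and how the 10335 probe sets were picked, was not given in the sources used here. These signals carry no depth or detection call, so the number of arrays limits the precision. They were used as deposited, for the 17 arrays that the study kept. Gene names came from the platform's annotation, and all 45 members matched RefSeq genes on GRCm38.p6. A gene is represented by its probe set of highest mean.

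The fit was made with limma 3.58.1 (R 4.3.3) on means of the 6 groups, moderated variances with a trend, 95% confidence intervals and p-values adjusted by Benjamini-Hochberg over the whole table, and it was tested on simulated data. The members, lists and comparisons were chosen with earlier results of these data known. Named were members past the threshold, up to 3 in each direction with the lowest unadjusted p under 0.05 in a comparison, members whose genotypes do not overlap and a core list of pathway genes, beside role groups. Others (Tnfrsf13c, Tnfaip1, and genes of the wider lists) were named after their values were seen.

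Replicate numbers were taken to name experiments, since the methods describe 3 experiments that each gave every group. After subtraction of the group mean, correlations between arrays of different groups averaged 0.008, 0.071 and 0.144 in replicates 1, 2 and 3. Between numbers they averaged -0.033. For 14 of the 17 arrays, the mean correlation with arrays of other groups was highest for their own number. The p-values and intervals of the main limma fit measure the spread between arrays within the groups. They treat the 17 arrays as independent, although the arrays come from 3 experiments. Alternatives were all 18 arrays, the replicate block, the compared groups only, quantile normalization, removal of dim probe sets, a constant prior variance, the methods' paired t-test and leaving out each array or replicate.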

Additional observations from a re-analysis of the deposited data

How the results depend on the processing

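No member passed the adjusted threshold in any of the 12 comparisons under any alternative run, with a single exception between genotypes over treatments. There the count of members lay between 0 and 1 when arrays or replicates were left out, and it was 1 without untreated JAK2V617F+ replicate 1 and without TNFR2 BA JAK2V617F+ replicate 3. The member was Nfkbia both times, at -2.06 (adjusted p 0.0292) and -2.01 (adjusted p 0.0244), and the cause was not tested. With the replicate number as a block, the count of members was 0 in each comparison, and Nfkbia differed by -1.70 between genotypes with an adjusted p of 0.0683, so the pairing changed no call. For single genes, 798 of the values under an alternative stayed on their side of the threshold, and the 2 that did not were those of Nfkbia. The filter on dim probe sets kept 32 of 45 members and 7751 probe sets. The methods' paired t-test was not run for the interactions, and fits on the compared groups only do not exist for genotype over treatments, which uses every group.
The number of arrays, 2 or 3 per group, limits the precision. With 3 arrays against 3 the median 95% confidence interval of a member reached 2.55 log2 units to each side. With 2 against 3 it reached 2.85. These intervals are not adjusted for the number of probe sets. Smaller differences were not detectable at the median member, and larger ones could also miss the adjusted threshold.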
